A study of Rattus norvegicus with 6 samples.

Results

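The genes described are the nuclear-encoded subunits of oxidative phosphorylation in rat renal cortex. They were chosen by symbol, with earlier results of these data known. The symbols were those given to subunits of complexes I to V (Ndufa, Ndufb, Ndufc, Ndufs and Ndufv, Sdha to Sdhd, Uqcr, Cox4 to Cox8 and Atp5), with the assembly factors named Ndufaf left out. A matched probe was found for 77 such symbols, and 76 of the 31179 genes tested were members, with 31 in complex I, 4 in complex II, 8 in complex III, 17 in complex IV and 16 in complex V. Each of the 76 was well above background on all 6 arrays, the member left out being Cox8c, the testis isoform of subunit 8 of cytochrome c oxidase. One of the 76, Cox6c-ps1, is annotated as a transcribed pseudogene, and the other 75 are protein-coding. RefSeq lists 110 protein-coding symbols that fit the rule, and 34 of them had no matched probe and were not analysed here, among them Cox7a1, Ndufa4l2, Atp5mc3, Ndufa8 and Ndufs6.

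The rats were male Sprague-Dawley animals of the Crl:CD(SD) stock, 5 weeks old at purchase, in 2 groups of 3. Benzyl acetate, an ester used in perfumes and flavourings that the body cleaves and converts to benzoic and then hippuric acid, was given at 1000 mg/kg/day for 4 weeks. The vehicle animals received corn oil for the same 4 weeks. RNA of whole renal cortex from each animal was hybridised to its own 1-colour Agilent array, so each value is an average over all cortical cells, and fewer cells of a type and less RNA per cell cannot be told apart.

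The respiratory chain sits in the inner mitochondrial membrane. Complex I takes electrons from NADH and complex II from succinate, ubiquinone carries them to complex III, cytochrome c carries them to complex IV, and the proton gradient built on the way drives ATP synthesis by complex V. The proximal tubule, which makes up much of the renal cortex and reabsorbs most of the filtered sodium, depends on this pathway for nearly all of its ATP. A few subunits of complexes I, III, IV and V are encoded by mitochondrial DNA, and no probe for these was matched, so the values below cover the nuclear genome alone.

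Values are log2 signals scaled to each array's own 75th percentile, and differences are benzyl acetate minus vehicle. The 75th percentile lay at 988, 990 and 883 intensity units on the benzyl acetate arrays, against 1003, 1049 and 1057 on the vehicle arrays. The share of 61537 probes well above background was 69.0%, 69.8% and 69.4% with benzyl acetate, against 70.5%, 71.0% and 72.0% with vehicle. Benzyl acetate replicate 3 stood apart on the first principal component (26.2% of the variance), at 50.1 where the other 5 arrays lay between -24.4 and -0.23. Vehicle replicate 1 was the only array on its slide, so that slide and that animal cannot be told apart. Proximal tubule markers were present as labelled, with all 12 listed genes detected. Their mean deviation from the 6-array mean ran from -0.043 to 0.018 with benzyl acetate and from -0.020 to 0.047 with vehicle. That mean includes Kap, which had by far the most negative difference of the 12. The median difference of the 12 was 0.046, with 8 above 0. Groups did not overlap in 3 higher genes, Slc22a6 (0.19), Slc22a8 (0.14) and Slc5a12 (0.23), and in 1 lower gene, Kap. Over all genes, groups were apart in 12.8%. Kap was the widest of the 12, at 8.48, 8.60 and 6.96 with benzyl acetate, against 9.22, 8.84 and 8.96 with vehicle (difference -0.995, limma adjusted p = 0.751). Mean deviations of 7 collecting duct markers were -0.086, -0.045 and -0.35 with benzyl acetate, against 0.27, 0.19 and 0.0078 with vehicle. Those of 7 of 8 listed T and NK cell markers were -0.33, -0.52 and -0.37 with benzyl acetate, against 0.21, -0.24 and 1.26 with vehicle. Those of 5 endothelial markers were 0.064, 0.062 and 0.029 with benzyl acetate, against -0.079, -0.064 and -0.012 with vehicle. Those of 3 detected markers of the distal convoluted and connecting tubule, of 5 listed, were -0.24, -0.072 and -0.0010 with benzyl acetate, against 0.025, 0.18 and 0.11 with vehicle. The groups did not overlap for these 4 lists. They overlapped for all other marker lists, among them those of the thick ascending limb, podocyte and macrophage. In the collecting duct list Slc26a4 (-0.96) and Atp6v1g3 (-0.63) fell most, while 2 of the 7, Scnn1g (0.094) and Slc4a1 (0.093), were above 0. In the endothelial list all 5 were above 0, with Kdr (0.25) and Ehd3 (0.18) the largest. The part of these cell types in the subunit values was not tested.

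No subunit gene differed between benzyl acetate and vehicle at an adjusted p under 0.05 in limma, 0 of 76 in either direction, and that count was also 0 (0%) over all 31179 genes. At an unadjusted limma p under 0.05 the count was again 0 of 76, where 6.74% of all genes passed (3.82% higher and 2.92% lower). The adjusted p of the 76 ran from 0.787 for Ndufab1 to 0.998. The median difference of the subunit genes was 0.012, the same to 2 digits as the 0.012 over all genes, with 46 of the 76 above 0, where 54% of all genes were above 0. The sign of that median rests on the scaling, since it was -0.017 with arrays centred on their medians, -0.0052 after quantile normalization and -0.0075 after cyclic loess. It also rests on vehicle replicate 1, being -0.012 without that array. Differences of individual genes ran from -0.29 for Atp5po to 0.11 for Ndufab1, and 68 of the 76 lay within 0.1 of 0.

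The 95% intervals set a bound on what these 6 arrays leave possible. In 73 of 76 subunit genes the interval lay inside a 1.5-fold difference either way, where 73.9% of all genes did so. The exceptions were Atp5po, Cox4i2 and Cox8b. Among the 73, Ndufa10 had the widest interval, allowing between 0.748-fold and 1.28-fold of the vehicle level. The median half-width was 0.18 log2, or 1.14-fold, for the subunit genes and 0.27 log2, or 1.21-fold, for all genes. The spread within groups was a median SD of 0.073 in the subunit genes and 0.14 over all genes. These sets were not matched for signal. Mean signal ran from -1.73 to 8.87 in the subunit genes and from -6.47 to 9.49 over all genes, and its part in the spread was not tested. In 3 of the 76 genes the groups did not overlap, where 12.8% of all genes were apart (7.51% with benzyl acetate higher and 5.31% with it lower), and in all 3 the benzyl acetate arrays were the higher ones (Ndufab1, Cox6a2 and Atp5mk).

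**Figure D1:**
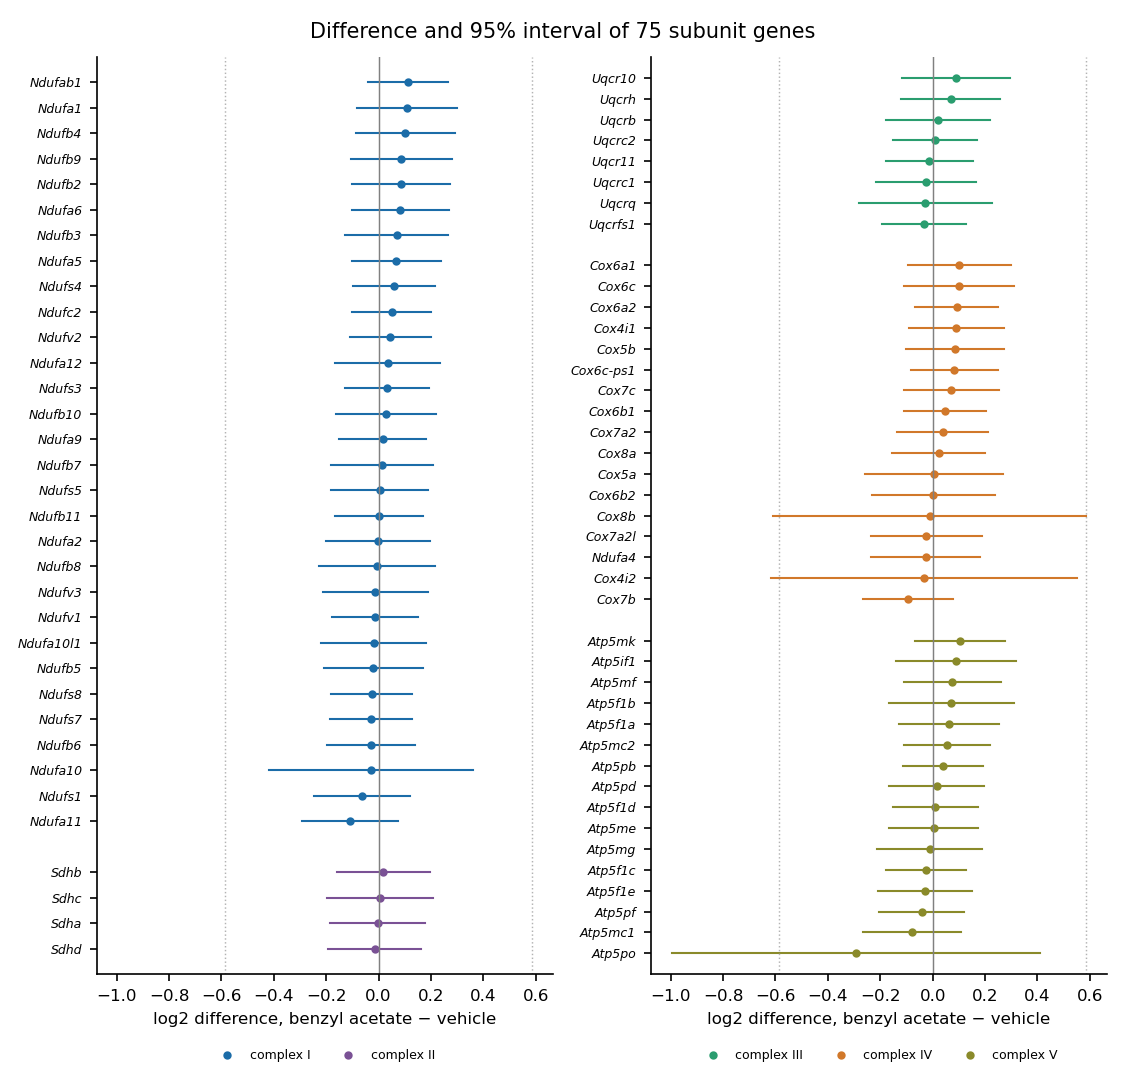
Log2 difference (x axis, benzyl acetate minus vehicle, n = 3 arrays each) of 75 of the 76 subunit genes with the 95% limma interval as a bar, grouped and coloured by complex, with dotted lines at a 1.5-fold difference. All intervals drawn cross 0, and those of Atp5po, Cox4i2 and Cox8b alone pass a dotted line.

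Promoter sequence was examined as a feature that the choice by symbol did not use. A RefSeq window (assembly GRCr8) of 250 bases before to 50 bases after the transcription start was found for 66 of the 76 genes. Each window was searched on both strands for 3 fixed words: GCGCA followed by any base and GCGC, the recognition sequence of NRF1 (nuclear respiratory factor 1, a known activator of respiratory chain genes), CCGGAAG, the core bound by ETS factors such as GABP, and AAGATGGC, that of YY1. The NRF1 word was in 12 of the 66 windows, 18.2%, against 4.25% of 33469 RefSeq windows of the same length and 8.72% of the 10019 belonging to tested genes. The ETS word was in 20 windows, 30.3%, against 8.75% of all windows and 15.8% of those of tested genes. The YY1 word was in 13 windows, 19.7%, against 3.17% and 4.88%, and 9 of its 13 copies began after the transcription start. This word contains ATG, the letters of a start codon. Whether copies after the transcription start lie on the start of the coding sequence was not tested. At least 1 of the 3 words was in 56.1% of the subunit windows, against 14.6% of all windows and 25.7% of those of tested genes. Sites of different words did not overlap (0 overlaps). A match is a string of letters and says nothing of binding in these kidneys.

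Windows of 4 genes are printed because they span the range found and belong to genes described below. Atp5me (subunit e of ATP synthase) is the only member with all 3 words, at chr14:1464610-1464909 on the plus strand. Atp5po (the oligomycin sensitivity subunit) has 2 words, at chr11:44657434-44657733 on the minus strand. Cox8a and Cox8b, the ubiquitous and the heart and skeletal muscle isoform of cytochrome c oxidase subunit 8, lie at chr1:213833574-213833873 and chr1:205408224-205408523, both on the minus strand. Sequences are the sense strand of each gene, 5′ to 3′, with the words in capitals.
Atp5me: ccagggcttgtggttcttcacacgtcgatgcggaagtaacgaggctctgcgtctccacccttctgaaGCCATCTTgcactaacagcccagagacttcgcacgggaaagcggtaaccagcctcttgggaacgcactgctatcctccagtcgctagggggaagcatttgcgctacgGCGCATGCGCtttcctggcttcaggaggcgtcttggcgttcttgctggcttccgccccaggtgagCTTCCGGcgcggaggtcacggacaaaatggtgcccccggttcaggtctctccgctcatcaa
Atp5po: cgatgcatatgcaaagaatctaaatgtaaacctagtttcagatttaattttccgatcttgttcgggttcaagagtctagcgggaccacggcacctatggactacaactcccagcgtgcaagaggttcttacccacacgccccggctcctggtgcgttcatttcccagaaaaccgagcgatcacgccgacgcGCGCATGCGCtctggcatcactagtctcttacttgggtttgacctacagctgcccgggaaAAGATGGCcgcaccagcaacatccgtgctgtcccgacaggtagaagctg
Cox8a: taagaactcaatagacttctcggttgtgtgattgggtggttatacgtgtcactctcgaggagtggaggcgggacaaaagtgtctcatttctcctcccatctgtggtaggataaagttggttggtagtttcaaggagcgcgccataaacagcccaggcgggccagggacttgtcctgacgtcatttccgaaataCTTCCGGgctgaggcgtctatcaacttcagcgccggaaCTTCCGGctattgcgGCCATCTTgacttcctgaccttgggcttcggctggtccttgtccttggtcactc
Cox8b: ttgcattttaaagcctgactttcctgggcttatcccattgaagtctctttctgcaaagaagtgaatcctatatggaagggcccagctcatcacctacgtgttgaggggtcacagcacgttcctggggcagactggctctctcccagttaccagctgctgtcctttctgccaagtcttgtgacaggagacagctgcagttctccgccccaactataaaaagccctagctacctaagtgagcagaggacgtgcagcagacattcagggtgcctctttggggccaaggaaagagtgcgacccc
In Atp5me the words begin at -183 (YY1, reverse), -76 (NRF1) and -11 (ETS, reverse), counted from the transcription start at +1. In Atp5po the NRF1 word begins at -59 and the YY1 word at 2. Cox8a carries the ETS word in reverse at -57 and -19 and the YY1 word in reverse at -4. None of the 3 words is in the Cox8b window. The log2 differences of these genes were 0.0034 for Atp5me, -0.29 for Atp5po, 0.024 for Cox8a and -0.012 for Cox8b, and none passed the limma test (adjusted p = 0.997, 0.872, 0.970 and 0.997 in that order).

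Complex I, the NADH dehydrogenase, had a median difference of 0.013 over 31 genes, 18 of them above 0, and all 31 intervals lay inside a 1.5-fold difference. Ndufab1, the mitochondrial acyl carrier protein that also serves fatty acid and lipoate synthesis, was at 5.29, 5.35 and 5.37 with benzyl acetate, against 5.21, 5.21 and 5.25 with vehicle. Its groups did not overlap, and the difference was 0.11 (95% interval -0.040 to 0.26, limma adjusted p = 0.787). Its other detected probes differed by 0.031 and 0.12. Ndufa1, a small membrane-bound accessory subunit, was at 6.89, 6.85 and 7.01 with benzyl acetate, against 6.72, 6.84 and 6.87 with vehicle, a difference of 0.11 with overlapping groups (limma adjusted p = 0.830). Ndufa11, an accessory subunit of the membrane arm, was at 3.78, 3.85 and 3.93 with benzyl acetate, against 3.995, 4.01 and 3.88 with vehicle. That was a difference of -0.11 (95% interval -0.29 to 0.075, limma adjusted p = 0.826), and vehicle replicate 3 lay among the benzyl acetate arrays. Ndufs1, the large iron-sulfur subunit that receives electrons from the flavin site, was at 5.07, 5.20 and 5.16 with benzyl acetate, against 5.12, 5.23 and 5.27 with vehicle, a difference of -0.064 (limma adjusted p = 0.895). The NADH-binding core, Ndufv1 and Ndufv2, differed by -0.015 and 0.044, and Ndufs7, a core subunit near the quinone site, by -0.029. The other members of complex I lay between -0.030 (Ndufa10) and 0.10 (Ndufb4). Ndufa10 was split across both groups, at 4.04, 4.08 and 4.41 with benzyl acetate and 3.93, 4.34 and 4.35 with vehicle. The like-named gene Ndufa10l1 was at 5.85, 6.05 and 5.84 with benzyl acetate, against 5.91, 5.96 and 5.93 with vehicle. Whether probes of the 2 genes share signal was not tested.

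Complex II, succinate dehydrogenase, is encoded wholly in the nucleus and also works in the citric acid cycle, and its 4 genes had the narrowest range of differences of the 5 complexes. Sdhb, the iron-sulfur subunit, was at 5.45, 5.56 and 5.49 with benzyl acetate, against 5.40, 5.53 and 5.52 with vehicle, a difference of 0.017. Sdha, the flavoprotein that oxidises succinate, was at 7.02, 7.12 and 7.17 with benzyl acetate, against 7.04, 7.12 and 7.16 with vehicle, a difference of -0.0031. The groups overlapped for both genes, and they did so for the membrane anchors as well. Sdhc was at 5.28, 5.42 and 5.46 with benzyl acetate, against 5.301, 5.46 and 5.38 with vehicle, a difference of 0.0062. Sdhd was at 6.08, 6.201 and 6.21 with benzyl acetate, against 6.13, 6.25 and 6.15 with vehicle, a difference of -0.015. Limma adjusted p-values were 0.982 to 0.997.

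Complex III, the cytochrome bc1 complex, had a median difference of -0.0014 over 8 genes, 4 above 0 and 4 below, with all 8 intervals inside 1.5-fold. Uqcr10, a small accessory subunit, was at 8.23, 8.24 and 8.34 with benzyl acetate, against 8.10, 8.14 and 8.31 with vehicle (difference 0.089, limma adjusted p = 0.864). Vehicle replicate 3 lay among the benzyl acetate arrays. Uqcrh, the hinge protein that helps dock cytochrome c, was at 6.51, 6.56 and 6.68 with benzyl acetate, against 6.48, 6.59 and 6.48 with vehicle (difference 0.069, limma adjusted p = 0.888). Uqcrfs1, the Rieske iron-sulfur protein, was at 5.96, 5.84 and 5.89 with benzyl acetate, against 5.899, 5.96 and 5.93 with vehicle (difference -0.033, limma adjusted p = 0.950). The groups of both genes overlapped. Uqcrc1, a core protein of the matrix side, was at 5.28, 5.37 and 5.19 with benzyl acetate, against 5.26, 5.28 and 5.38 with vehicle (difference -0.025, limma adjusted p = 0.971). Its partner Uqcrc2 differed by 0.0097. Uqcrb, Uqcr11 and Uqcrq, all small subunits, differed by 0.022, -0.013 and -0.028. Uqcrq had a second probe that was not above background on any array, and its other probe was at -0.19, -0.25 and -0.37 with benzyl acetate, against -0.30, -0.06 and -0.36 with vehicle.

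Complex IV, cytochrome c oxidase, had a median difference of 0.039 over 17 genes, 12 of them above 0. Cox6a1, the ubiquitous subunit 6a, was at 8.74, 8.81 and 8.88 with benzyl acetate, against 8.60, 8.74 and 8.78 with vehicle (difference 0.10, limma adjusted p = 0.838). Benzyl acetate replicate 1 lay below the 2 higher vehicle arrays, so the groups overlapped. Cox7b, an accessory subunit, was at 6.42, 6.41 and 6.53 with benzyl acetate, against 6.49, 6.59 and 6.57 with vehicle (difference -0.093, limma adjusted p = 0.835). Ndufa4, named for complex I and counted here with complex IV, where the protein is now placed, was at 6.77, 6.75 and 6.96 with benzyl acetate, against 6.80, 6.92 and 6.84 with vehicle. Its difference was -0.027 (limma adjusted p = 0.971). Of the remaining subunits, Cox6c differed by 0.10, Cox7c by 0.071 and Cox5a by 0.0062. The median of complex IV ran from 0.0095 with arrays centred on their medians to 0.092 without vehicle replicate 2, over all alternatives tried, whereas the medians of the other 4 complexes each lay on both sides of 0 among them.

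Complex V, the ATP synthase, had a median difference of 0.012 over 16 genes, 10 of them above 0. Atp5mk, a small subunit of the membrane part, was at 6.79, 6.77 and 6.89 with benzyl acetate, against 6.65, 6.73 and 6.76 with vehicle. Its groups did not overlap and the difference was 0.11 (95% interval -0.066 to 0.28, limma adjusted p = 0.818). A second Atp5mk probe differed by 0.059 with overlapping groups. Atp5mf, subunit f, was at 7.98, 8.01 and 8.13 with benzyl acetate, against 7.90, 8.04 and 7.97 with vehicle (difference 0.075, limma adjusted p = 0.877). The catalytic head subunits Atp5f1a and Atp5f1b differed by 0.062 and 0.071, and the rotor stalk subunits Atp5f1c and Atp5f1d by -0.025 and 0.010. Atp5f1e, the smallest stalk subunit, was at 7.82, 7.84 and 7.98 with benzyl acetate, against 7.89, 7.96 and 7.88 with vehicle (difference -0.028, limma adjusted p = 0.964). Atp5if1, the inhibitor that stops the enzyme from running backwards, was at 6.25, 6.06 and 6.29 with benzyl acetate, against 6.01, 6.14 and 6.19 with vehicle (difference 0.091, limma adjusted p = 0.880). The peripheral stalk subunits Atp5pb, Atp5pd and Atp5pf differed by 0.040, 0.015 and -0.043.

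Atp5po, the stalk subunit that joins the head to the rest of the enzyme and confers sensitivity to oligomycin, had the most negative difference of the 76, and 1 array carried it. Its only probe read 7.98, 6.99 and 8.04 with benzyl acetate, against 7.86, 7.99 and 8.04 with vehicle. Benzyl acetate replicate 2 alone was low, at 50.2% of the median of the other 5 arrays, and the remaining arrays overlapped. The difference was -0.29 (95% interval -0.996 to 0.41, limma adjusted p = 0.872), and it was 0.046 (95% interval -0.19 to 0.28) without benzyl acetate replicate 2. Atp5mg, subunit g of the membrane part, had a dimmer probe that was low on the same array, at 6.98, 6.12 and 7.02 with benzyl acetate, against 6.84, 7.003 and 6.97 with vehicle. Its brighter probe read 7.496, 7.33 and 7.54 with benzyl acetate, against 7.40, 7.51 and 7.49 with vehicle. On replicate 2 the 2 probes of this gene thus read 55.3% and 89.3% of the median of the other arrays. The spots carried no outlier flag, and a cause was not tested. A single array more than 0.5 log2 from the median of the other 5 was found in 3 of 76 subunit genes (3.95%) and in 23.1% of all genes. A departure that was also over 3 times the range of the other 5 arrays was found in 1 subunit gene, Atp5po (1.32%), and in 1.32% of all genes.

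**Figure D2:**
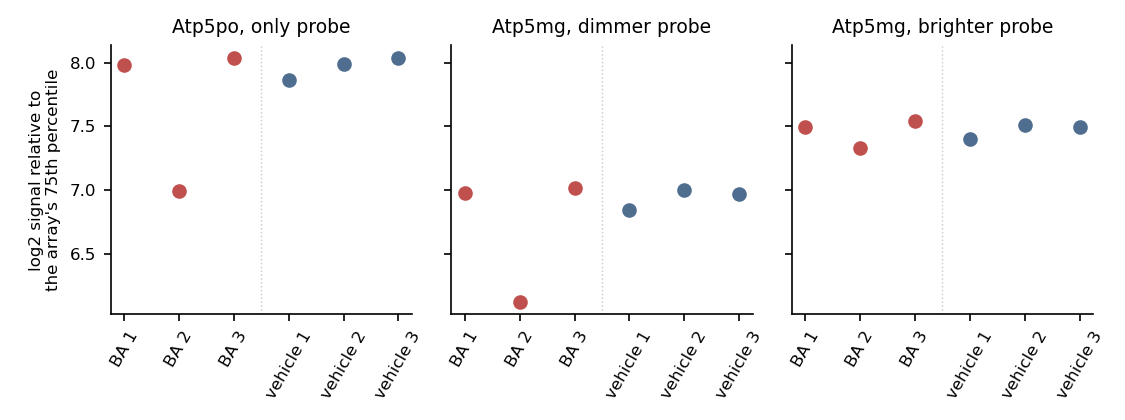
Scaled log2 signal (y axis, 75th percentile of each array at 0) of the Atp5po probe and both Atp5mg probes on each array, with benzyl acetate (BA) in red and vehicle in blue. Benzyl acetate replicate 2 reads 6.99 for Atp5po and 6.12 for the dimmer Atp5mg probe, where the other arrays read 7.86 to 8.04 and 6.84 to 7.02.

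The subunit genes of all 5 complexes shared shifts between arrays of the same group. Their mean deviation from the 6-array mean was -0.024, -0.00066 and 0.050 on the benzyl acetate arrays, against -0.070, 0.034 and 0.010 on the vehicle arrays. The groups overlapped, and the difference of the group means, 0.017, was smaller than the pooled SD within groups, 0.047 (n = 3 each). Vehicle replicate 1 was the lowest of the 6 arrays in 36 of 76 genes, where it was lowest in 21% of all genes. Benzyl acetate replicate 3 was the highest in 43 of 76, where it was highest in 25% of all genes. These shares were not matched for signal. Vehicle replicate 1 also had a mean of -0.049 in genes of pyruvate dehydrogenase and the citric acid cycle and -0.047 in regulators of mitochondrial biogenesis. Its mean was 0.0076 in assembly factors and 0.019 in electron carriers and feeders of ubiquinone. The low mean of vehicle replicate 1 was found in each of complexes I, II, III, IV and V, at -0.063, -0.071, -0.062, -0.093 and -0.063. The mean of benzyl acetate replicate 3 was above 0 in each, at 0.055, 0.044, 0.024, 0.032 and 0.075. It was not the highest in complexes II, III and IV, where vehicle replicate 2 stood at 0.054, 0.032 and 0.056. In complex II benzyl acetate replicate 1 was lower than vehicle replicate 1, at -0.080. Complex V stood at -0.066 on benzyl acetate replicate 2, and at -0.016 there with Atp5po left out. With arrays centred on their medians, benzyl acetate replicate 1 was lowest at -0.061 and vehicle replicate 2 highest at 0.045. After quantile normalization the means were -0.014, -0.0065 and 0.0057 with benzyl acetate, against -0.016, 0.033 and -0.0032 with vehicle. By these means vehicle replicate 1 was the lowest, close to benzyl acetate replicate 1, and vehicle replicate 2 was the highest. By the median deviation after quantile normalization the order differed. Benzyl acetate replicate 1 was then lowest at -0.029 and replicate 3 highest at 0.030, with vehicle replicate 1 at -0.0065.

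**Figure D3:**
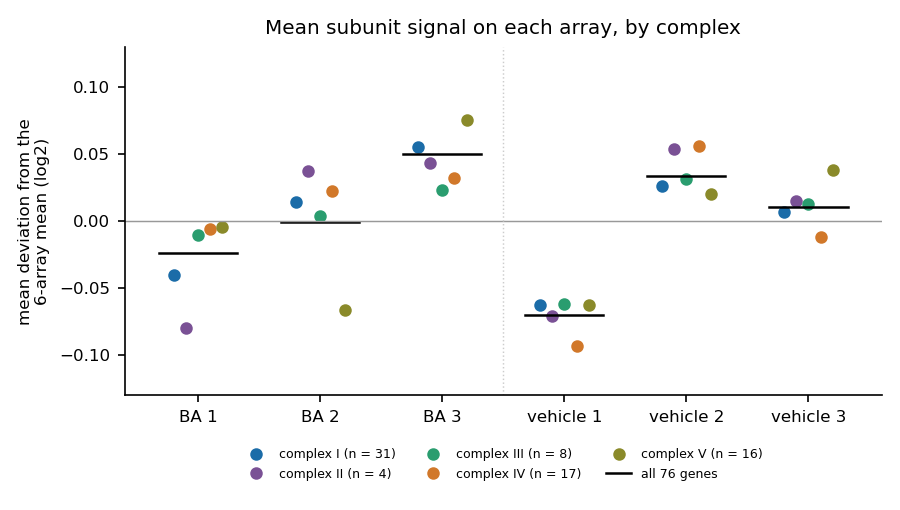
Mean deviation of the subunit genes from their 6-array mean (y axis, log2) on each array, as coloured points for complexes I to V and a black line for all 76 genes, with benzyl acetate (BA) on the left. The line runs from -0.024 to 0.050 with benzyl acetate and from -0.070 to 0.034 with vehicle, so the groups overlap.

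Several subunits of complex IV exist as tissue isoforms, a ubiquitous form and one typical of striated muscle, lung or testis. Of 21 genes listed as isoforms, 16 were tested and none passed in limma (adjusted p from 0.828), with a median difference of 0.013. Cox4i2, the lung form of subunit 4, was at 2.56, 2.61 and 2.18 with benzyl acetate, against 1.99, 2.8 and 2.65 with vehicle (difference -0.032, 95% interval -0.62 to 0.55). Its ubiquitous partner Cox4i1 was at 7.88, 7.95 and 8.001 with benzyl acetate, against 7.77, 7.91 and 7.90 with vehicle (difference 0.089, limma adjusted p = 0.847). This Cox4i2 probe was low on 1 array of each group. A second, dimmer Cox4i2 probe did not share that pattern, at 0.50, 0.43 and 0.52 with benzyl acetate, against 0.39, 0.46 and 0.33 with vehicle. It differed by 0.093 (95% interval -0.084 to 0.27), so the wide interval belongs to the brighter probe. Cox6a2, the striated muscle form of subunit 6a, was at -1.21, -1.13 and -1.22 with benzyl acetate, against -1.32, -1.24 and -1.27 with vehicle (difference 0.091, 95% interval -0.068 to 0.25, limma adjusted p = 0.828). The groups did not overlap on this probe, but its other 2 probes differed by -0.12 and -0.064. Cox6b1, the ubiquitous subunit 6b, was at 5.74, 5.78 and 5.85 with benzyl acetate, against 5.75, 5.75 and 5.73 with vehicle (difference 0.047). The testis form Cox6b2 was at 3.54, 3.61 and 3.803 with benzyl acetate, against 3.74, 3.66 and 3.56 with vehicle (difference 0.0017). Both pairs of groups overlapped. A second Cox6b2 probe was far dimmer, at -3.27, -3.62 and -4.02 with benzyl acetate, against -3.84, -3.40 and -3.52 with vehicle. The probes thus disagree on the level of Cox6b2, and the values above are those of the brighter probe. Cox7a2, the form of subunit 7a found in most tissues, was at 6.303, 6.34 and 6.41 with benzyl acetate, against 6.25, 6.38 and 6.31 with vehicle (difference 0.039). Cox7a2l, a related protein that joins complexes III and IV, was at 4.81, 4.94 and 5.06 with benzyl acetate, against 4.91, 4.97 and 5.01 with vehicle (difference -0.025).

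Cox8b, the subunit 8 form of heart, skeletal muscle and brown fat, was at -1.51, -1.46 and -2.23 with benzyl acetate, against -1.67, -1.50 and -1.99 with vehicle (difference -0.012, 95% interval -0.61 to 0.59). It was lowest on replicate 3 of both groups, and a second probe gave -0.014. Cox8a, its ubiquitous partner, was at 8.19, 8.23 and 8.33 with benzyl acetate, against 8.19, 8.29 and 8.20 with vehicle (difference 0.024, limma adjusted p = 0.970). Of 7 fat markers 5 were detected, with mean deviations of -0.44, -0.085 and -0.40 with benzyl acetate, against 0.55, 0.77 and -0.39 with vehicle. That mean includes Fabp4, which had by far the most negative difference of the 5 (-2.94), while Adipoq was above 0 (0.34). Cidec and Adipoq were lowest on replicate 3 of both groups, and Fabp4, Ucp1 and Cidea were not. Of 11 striated muscle markers 5 were detected, with mean deviations of 0.10, -0.19 and -0.28 with benzyl acetate, against -0.28, 0.25 and 0.40 with vehicle. The part of other tissue in the Cox8b and Cox6a2 values was not tested.

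The balance within isoform pairs was compared as the change in the log2 ratio of the paired probes, since probes of different genes cannot be set against each other as levels. The change was -0.12 for Cox4i2 over Cox4i1, -0.011 for Cox6a2 over Cox6a1, -0.046 for Cox6b2 over Cox6b1 and -0.036 for Cox8b over Cox8a, with exact two-sided permutation p-values of 0.5, 0.8, 0.6 and 1. Atp5mc1 and Atp5mc2 encode the same mature subunit c of the ATP synthase rotor with different import sequences. Atp5mc1 was at 7.42, 7.47 and 7.58 with benzyl acetate, against 7.49, 7.61 and 7.61 with vehicle (difference -0.078, limma adjusted p = 0.872). Atp5mc2 was at 7.21, 7.27 and 7.33 with benzyl acetate, against 7.17, 7.25 and 7.23 with vehicle (difference 0.055, limma adjusted p = 0.899). The log2 ratio of the 2 probes was 0.21, 0.20 and 0.25 with benzyl acetate, against 0.33, 0.36 and 0.37 with vehicle. Each benzyl acetate array lay below each vehicle array, a change of -0.13 for which the exact permutation test (two-sided) gave p = 0.1, its lowest possible value at 3 arrays a group, or 0.5 adjusted over the 5 pairs. Over all 6 combinations of the detected probes of these genes the change was -0.14 to -0.080, and the groups were apart in 3 of the 6.

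**Figure D4:**
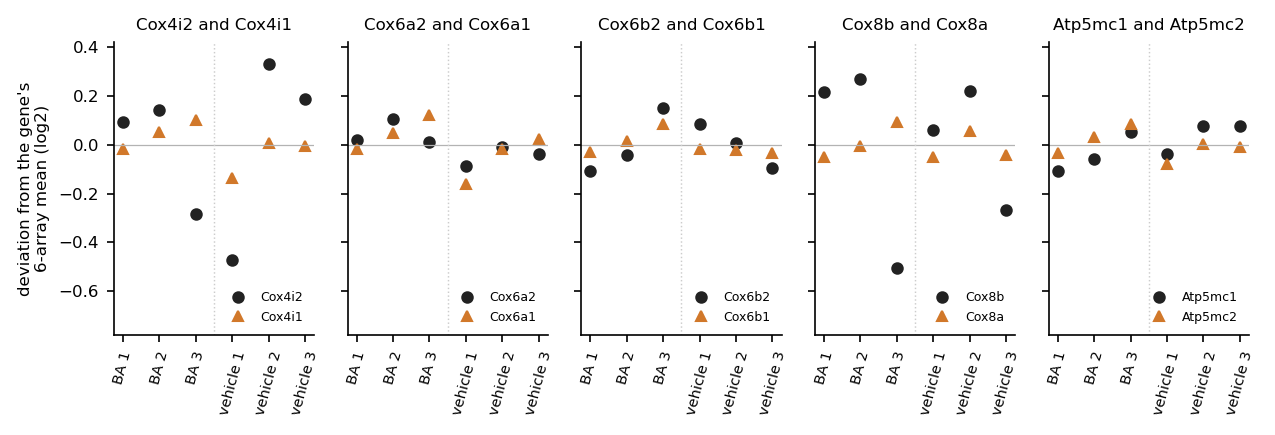
Deviation of each gene from its own 6-array mean (y axis, log2) on each array for 5 isoform pairs, the tissue-typical form or Atp5mc1 as black circles and its partner as orange triangles, with benzyl acetate (BA) on the left of each panel. Cox4i2 and Cox8b vary most, with low arrays in both groups, and the circle lies below the triangle on all 3 benzyl acetate arrays and above it on all 3 vehicle arrays for Atp5mc1 and Atp5mc2.

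For 40 of the 76 genes several probes were detected, and in 17 these differed in sign. In Ndufv3 the brightest probe gave -0.012 and the others reached -0.17 and 0.17. Cox6c-ps1 gave 0.083 on its brighter probe and -0.12 on the other, and Ndufc2 gave 0.049 and -0.11. Both probes disagreed likewise for Atp5f1a (0.062 and -0.075), Atp5pf (-0.043 and 0.081), Ndufs4 (0.059 and -0.038) and Cox7a2l (-0.025 and 0.063). Ndufa10l1 gave -0.019 on its brightest probe and up to 0.086 on another. The disagreements were smaller for Ndufa2 (-0.0025 and 0.071), Uqcr11 (-0.013 and 0.059), Ndufa12 (0.034 and -0.036) and Cox6b1 (0.047 and -0.018). The same held for Cox6b2 (0.0017 and -0.051), Uqcrc1 (-0.025 and 0.012) and Ndufs5 (0.0040 and -0.0012). With Cox6a2 and Cox4i2, described above, these make up the 17, and in 3 of them the gap between probes was over 0.2 log2.

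Genes that build, feed or regulate the chain were examined as lists. Of 54 assembly factors 42 were tested, 21 above 0, with a median difference of -0.00042 and 0 at an unadjusted limma p under 0.05. Tmem126b, which builds the membrane arm of complex I, was at 3.77, 3.74 and 3.86 with benzyl acetate, against 3.67, 3.61 and 3.63 with vehicle (difference 0.16, limma adjusted p = 0.743). Coa7, a complex IV assembly factor, was at 0.024, -0.17 and -0.049 with benzyl acetate, against 0.12, 0.21 and 0.038 with vehicle (difference -0.19, limma adjusted p = 0.751). The groups of both genes did not overlap, as in 9.52% of the 42 assembly factors and 12.8% of all genes. Of 22 electron carriers and feeders of ubiquinone 20 were tested, with a median of 0.0066. At an unadjusted limma p under 0.05, 2 of the 20 were lower and 0 higher, where 2.92% of all genes were lower and 3.82% higher. Neither of the 2 passed after adjustment. Coq4, needed for ubiquinone synthesis, was at -1.07, -0.896 and -0.95 with benzyl acetate, against -0.73, -0.72 and -0.79 with vehicle (difference -0.23, limma adjusted p = 0.7). Dhodh, the pyrimidine synthesis enzyme that hands electrons to ubiquinone, was at 0.83, 0.79 and 0.85 with benzyl acetate, against 1.14, 1.03 and 0.92 with vehicle (difference -0.20, limma adjusted p = 0.732). Of 18 regulators of mitochondrial biogenesis 17 were tested, with a median of 0.062, 11 above 0 and 0 at an unadjusted limma p under 0.05. Gabpb1, a subunit of GABP, differed by -0.12 and the coactivator Ppargc1b by 0.25 (limma adjusted p = 0.775 and 0.822). Of 18 genes of pyruvate dehydrogenase and the citric acid cycle 17 were tested, with a median of 0.025 and 0 at an unadjusted limma p under 0.05. Dld, the dehydrogenase subunit shared by several such complexes, differed by 0.15 and Idh2, the mitochondrial NADP-linked isocitrate dehydrogenase, by 0.10 (limma adjusted p = 0.775 and 0.831).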

How the data were processed

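Renal cortex RNA from 6 male rats was measured on 1-colour Agilent arrays, 3 per group, with 1 animal on each array per the labels. The deposited scanner tables give spot intensity on a linear scale. Per the file headers this signal had its background subtracted and was not yet scaled across arrays, and the submitters' processing notes name Agilent Feature Extraction 10.7. That software also set the deposited spot flags (0 or 1 for above background, outlier or saturation), per the file headers. In the deposited value table, each column of intensity values was the processed signal over 1 constant per array, hence linear and without centring of genes, and its column medians were 0.1148, 0.1118 and 0.1125 for benzyl acetate and 0.1102, 0.111 and 0.111 for vehicle.

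Processed signals of 61537 non-control probes were divided by their 75th percentile on each array and put on the log2 scale. Between 1 and 16 outlier spots per array were left out, and 0 were saturated. The scaling cannot show a shift common to most of the transcriptome. A probe entered when well above background on all 3 arrays of a group. Accessions without version were matched to RefSeq symbols of assembly GRCr8 (28206 of 61537 probes, 15645 symbols), and the brightest probe per gene was used. The array grid names an older build, so only the promoter windows carry coordinates, those of GRCr8. Probes of near-identical paralogs may pick up each other's transcripts.

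The comparison was made in limma 3.58.1 (R 4.3.3) with lmFit and eBayes on all 6 arrays, Benjamini-Hochberg adjustment over 31179 genes and a threshold of 0.05, and the procedure was tested on simulated data. The members and gene lists were chosen with earlier results of these data known. Every member could be named, and values per array were given for the 2 members of lowest p per direction and complex and the tested isoforms. Members whose probes disagreed in sign were named with both differences, and each related list with its 2 genes of lowest p. Kap, the genes singled out for a single low array and the 4 printed promoters were picked with their values known. The result of 1 member is not reported here, though it stays in the counts. The alternatives run were blocks for replicate number and for slide, normexp (offset 50, run on the median spot signal), scaling by quantiles, by the median or by cyclic loess, different filters and probe rules, array weights, a prior with trend and robust settings, the deposited values, keeping outlier spots and leaving out each array. The number of arrays limits the precision, and p-values reflect the spread between these animals.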

Additional observations from a re-analysis of the deposited data

Results flagged for a closer look

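A probe for Cox8c, the testis isoform of cytochrome c oxidase subunit 8, drew attention because it lay outside the tested genes and was above background on a single array. It was well above background on 1 of 3 benzyl acetate arrays and on 0 of 3 vehicle arrays. Its log2 signal was -7.72, -7.94 and -4.94 with benzyl acetate, against -8.02, -8.22 and -8.25 with vehicle, so replicate 3 of the benzyl acetate group stood above the rest. A second Cox8c probe was not above background on any array, at -7.98, -8.16 and -8.10 with benzyl acetate, against -8.29, -8.32 and -8.45 with vehicle. The share of other untested probes above background on a single array is not given here. Of 8 male germ cell markers 3 were detected, with mean deviations of 0.20, -0.10 and 0.40 on the benzyl acetate arrays, against -0.25, -0.018 and -0.24 on the vehicle arrays. All 3 were dim, at mean signals of -4.50 to -3.64. Tnp2 and Prm1 were highest on benzyl acetate replicate 3, but Prm2 was highest on replicate 1 (-3.68), with replicate 3 at -3.99. Benzyl acetate replicate 3 was also the array that stood apart on the first principal component. A cause was not tested.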

How the results depend on the processing

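Over 20 alternatives, the counts of subunit genes past the adjusted threshold of 0.05 were 0 higher and 0 lower in each, and the lowest adjusted p of any member was 0.571 (no filter on dim probes) to 0.939 (without vehicle replicate 2). At an unadjusted limma p under 0.05 the count was 0 in each except with a trended robust prior, where 1 gene, Ndufab1, passed (limma adjusted p = 0.757). The median difference ran from -0.017 to 0.047 over the alternatives and from -0.012 to 0.047 when each array was left out in turn. With the replicate number as a block it was 0.012 and the lowest adjusted p was 0.835, and same-numbered arrays correlated at -0.11, 0.0075 and 0.00095, so the numbers were not taken to pair the animals. The slide as a block gave -0.012, the value without vehicle replicate 1. Between 73 and 75 members had intervals inside 1.5-fold. Of 840 recomputed differences of the 42 named members, 20 moved by more than the SD between replicates, 9 of them when the dimmest probe of a gene was used, and 0 passed the threshold. With 3 arrays a group, differences under about the 1.14-fold median half-width could not be told from 0 even by a single-gene interval. These intervals are not adjusted for the number of genes, and the adjusted threshold of 0.05 is stricter. The lowest limma p of all 31179 genes, 1.2e-05, had an adjusted p of 0.271. The smallest difference that could pass the adjusted threshold was not tested.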
